A study of Rattus norvegicus with 6 samples.

Results

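Cytosolic ribosomal proteins were examined in primary rat brain microvascular endothelial cells (rBMECs) treated with homocysteine (Hcy). The genes were the rows of the deposited count table whose gene name follows the pattern of the large-subunit proteins (Rpl), the small-subunit proteins (Rps), the acidic stalk proteins (Rplp0, Rplp1 and Rplp2) or Rpsa. This gave 93 of 33566 rows, 56 for the large subunit and 37 for the small subunit. By the study's methods, the cells came from the cerebral forebrain of SD rats 18 to 22 days old. They were purified in a screening medium and were used after a single passage. Hcy is a sulfur amino acid formed in the methionine cycle. In the Hcy group (Hcy1 to Hcy3), cells are labelled as given 100 µM Hcy for 24 h, and in the Veh group (Veh1 to Veh3) they received sterile water. The labels and the study's methods also give a ready-made 50 µM Hcy solution as the one applied, and neither says how the 2 concentrations relate, so the dose is uncertain. No source states whether the 3 libraries of a group came from separate animals or cultures, so the p-values measure the spread between these libraries, which may be technical.

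The 6 libraries held 14024997 to 16764584 counts, so 3 counts, the floor used for undetected genes, stood for 0.179 to 0.214 per 1000000 counts. Levels are given as CPM, the counts per 1000000 counts of a library after TMM scaling. Endothelial markers summed to 8846 to 10693 CPM in each library, although Cldn5, a tight junction gene of brain endothelium, had 0 counts in all of them. Smooth muscle markers summed to 717 to 751 CPM in Hcy and to 1148 to 1385 CPM in Veh. Of these 5 markers, 1 rose and 3 fell in the Hcy group by edgeR's quasi-likelihood test, beside 2.34% of all genes past the same adjusted p of 0.05. Of 12 endothelial markers tested, 0 rose and 0 fell by edgeR, and 4 passed by DESeq2, beside 4.19% of all genes. At an unadjusted p of 0.05, 7 of them passed by edgeR, beside 13.4% of all genes. Without Veh3, 2 endothelial markers rose and 3 fell by edgeR, beside 6.67% of all genes. Fibroblast markers summed to 44.6 CPM in Hcy2, the lowest library, and to 91.2 CPM in Veh3, the highest. Markers of pericytes, astrocytes, microglia and neurons summed to less than 10 CPM in every library, and those of oligodendrocytes to 10.6 to 12.2 CPM. The part of these other cells in the ribosomal protein values was not tested. In such bulk libraries, fewer cells of a type and less RNA per cell cannot be told apart.

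The cytosolic ribosome joins a small subunit, which decodes the mRNA, to a large subunit, which forms the peptide bond. Nearly all of its proteins are present in equal number in each ribosome, and their mRNAs are among the most abundant of the cell. Most of these mRNAs start with a C followed by a run of pyrimidines, the 5′ terminal oligopyrimidine (TOP) motif, through which mTORC1 and LARP1 set their translation and stability together. Ribosomal protein genes have also left many intronless retrocopies in mammalian genomes. Reads from a spliced mRNA and from such a copy can be close to identical, which makes the assignment of counts to a row uncertain.

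Start sites of 63 member symbols could be read from the RefSeq promoter table (build GRCr8). A C at the annotated start, opening a run of at least 5 C or T bases read on the transcript strand, was found at 21 of these starts (33.3%), against 881 of 33469 starts in the whole table (2.63%). Starts were matched by symbol. For Rpl9, Rpl35a, Rpl37 and Rpl39, which are among the 21, the start lies on another chromosome than the intronless member row. The windows below hold the 10 bases before the start and the 20 bases from it, with the pyrimidine run at the start in capitals. They are shown for members on which later comparisons turn, 3 with the motif and 2 paralogue or core genes without it.
Rplp0 (chr12:46718371-46718400, minus strand): caccgcacttCTCTCgccaggcgtcctcat
Rpl17 (chr18:70856266-70856295, plus strand): ttcgcgcttcCTCTTCCTgttagcggccag
Rps7 (chr6:50999426-50999455, minus strand): agagctgtgtCTCTTTCTaagccggcactc
Rpl22l1 (chr2:113683186-113683215, plus strand): gtggatatccggttccgagttgcgcagcgc
Rpl13a (chr1:104748894-104748923, minus strand): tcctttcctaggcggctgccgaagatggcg
The absence of the run in the last windows says only that these letters do not stand at the annotated start.

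Member mRNAs were abundant. Counts on the 93 rows made up 4.71%, 4.38% and 4.42% of all counts in Hcy1 to Hcy3, a mean of 4.51% ± 0.182 (SD, n = 3). In Veh1 to Veh3 they made up 4.13%, 4.31% and 5.68%, a mean of 4.71% ± 0.850 (SD, n = 3). Veh3 was therefore the highest library and Veh1 the lowest, and the Hcy libraries lay between them. Of the 93 rows, 65 had a mean above 100 CPM, 18 lay between 1 and 100 CPM, and 10 were below 1 CPM.

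Veh3 stood apart from the other libraries over nearly the whole family. Among the 68 members with at least 1000 counts in every library, 62 were highest in Veh3. The share of all genes highest in Veh3 is not given, here or beside later counts of this kind. The median level of these members, as log2 CPM relative to each gene's own mean, was 0.05, -0.06 and -0.07 in Hcy1 to Hcy3. It was -0.16 in Veh1, -0.14 in Veh2 and 0.35 in Veh3. The 3 Hcy libraries thus lay close together, whereas the Veh group held both the lowest and the highest levels. The median coefficient of variation of these members was 5.40% in Hcy and 20.9% in Veh.

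**Figure D1:**
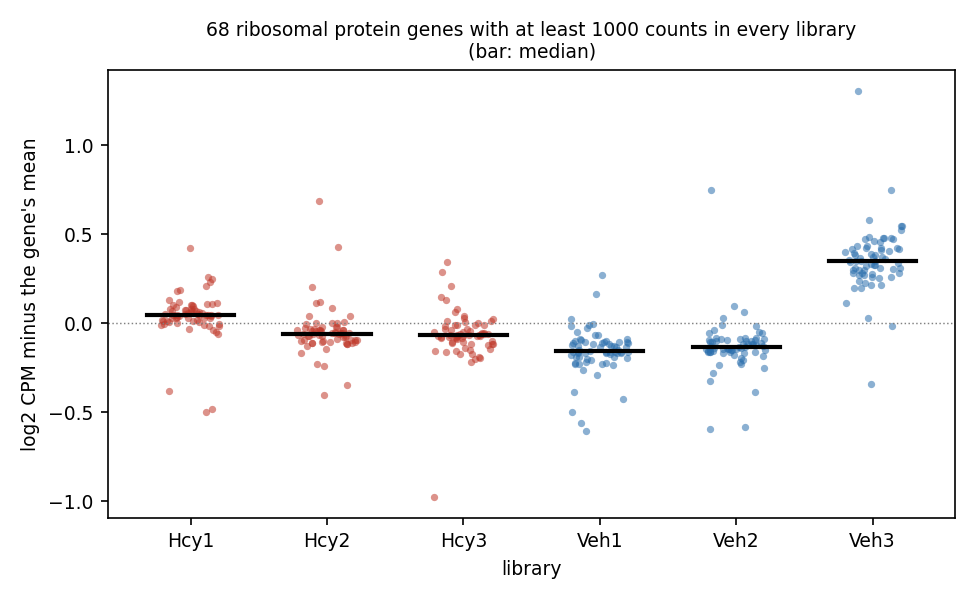
Level of 68 ribosomal protein genes with at least 1000 counts in every library, as log2 CPM minus the gene's mean over the 6 libraries (vertical axis), by library (horizontal axis). Points are genes and bars are medians, which run from -0.16 in Veh1 to 0.35 in Veh3.

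Other short transcripts were also high in Veh3. Among genes with no ribosomal protein annotation and at least 600 counts in all, the median relative level in Veh3 was 0.26 for the 694 genes with up to 1000 bases of exon. It was 0.06 for 4867 genes of over 1000 to 3000 bases and -0.10 for 3438 longer genes. Veh3 also had the lowest endothelial marker sum, 8846 CPM against 9915 to 10693 CPM in the other libraries. The part of transcript length, RNA quality or cell composition in the Veh3 values was not tested.

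Of the 88 members tested, 1 differed between the groups by the test used. Of 14603 genes tested over the whole table, 71 passed an adjusted p of 0.05 with a log2 fold change of at least 1 in either direction (0.486%), and 341 passed the adjusted p alone (2.34%). Of the 88 members with at least 10 counts in all, 0 met the first rule by edgeR, and 0 met it by DESeq2. By the second rule, 1 rose (Rpl30) and 0 fell by edgeR, and 1 member passed by DESeq2, beside 4.19% of all genes with that tool. At an unadjusted p of 0.05, 11 members passed, against 13.4% of all genes. The levels of the 3 Hcy libraries did not overlap those of the 3 Veh libraries in 5 members, against 20.1% of all genes. These were Rpl30 and Rpl22l1, higher in Hcy, and Rpl10l, Rps4y2 and Rps27l, lower in Hcy.

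Most members differed little between the groups. The median log2 fold change of the 88 members was -0.08 (interquartile range -0.14 to 0.01), beside -0.02 over all genes tested. It was -0.07 over 51 large-subunit rows and -0.08 over 37 small-subunit rows. The fold change was within 0.25 of zero on the log2 scale in 73 of 88 members, with 65 below zero and 23 above. Over all genes tested, it was within 0.25 of zero in 9636 of 14603, with 7749 below zero and 6854 above. The median turned to 0.11 without Veh3, where 71 of 87 members lay above zero, beside 7091 of 14352 genes. In that comparison 5 members passed the adjusted p, all of them higher in Hcy, against 500 of 14352 genes higher in Hcy (3.48%). The count of genes past the adjusted p over the whole table was 957 without Veh3 (6.67%). Start sites were compared among spliced members with 1 row per name and at least 1000 counts in every library. The median log2 fold change was -0.12 for 16 with a C opening the pyrimidine run at the start. It was -0.08 for 29 with any other start, which include runs opened by a T. The median relative level of these groups in Veh3 was 0.36 and 0.35.

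**Figure D2:**
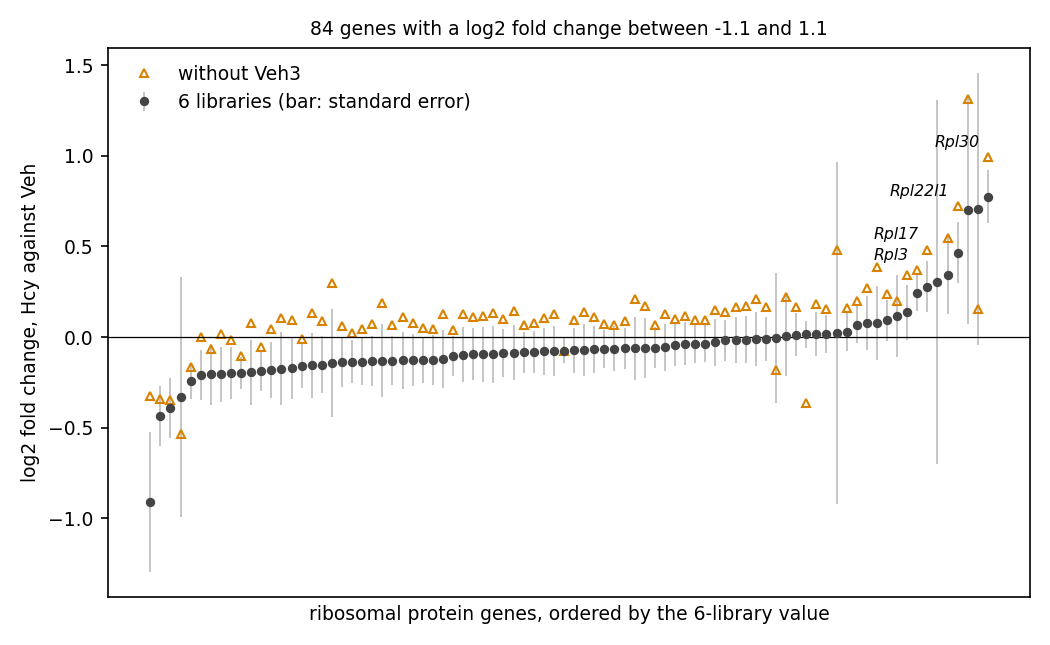
Log2 fold change of Hcy against Veh (vertical axis) for the 84 members between -1.1 and 1.1, ordered by value. Filled circles are the 6-library values with their standard errors and open triangles the values without Veh3, most of which lie above zero, with a median of 0.11 over all members.

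The members that passed without Veh3 were Rpl3, Rpl17, Rpl30, Rpl22l1 and Rpl13a. Rpl3 forms part of the peptidyl transferase region of the large subunit. Its level was 1633, 1561 and 1525 CPM in Hcy1 to Hcy3 and 1224, 1214 and 1558 CPM in Veh1 to Veh3. Every library of Hcy was above Veh1 and Veh2, and Veh3 lay within the range of the Hcy group. The log2 fold change of Rpl3 was 0.24 (SE 0.10, edgeR adjusted p = 0.327) with 6 libraries and 0.37 (edgeR adjusted p = 0.00175) without Veh3. Rpl13a, known for a role in translational silencing outside the ribosome, had a log2 fold change of 0.14 (edgeR adjusted p = 0.781) and, without Veh3, of 0.34 (edgeR adjusted p = 0.0408). Rpl13a held only 39.9% of the counts of its protein, the rest being on 2 expressed copies. The sum of L13a rows had a log2 fold change of 0.23 (edgeR adjusted p = 0.0481) without Veh3.

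Rpl30 was the member that rose with all 6 libraries. L30 is a small protein of the large subunit that also binds kink-turn RNA. The row lies at chr7:73213581-73216251 in the deposited table, has 348 bases of exon over a span of 2671 bases, and is thus spliced. Its level was 181, 182 and 171 CPM in Hcy1 to Hcy3 (178 ± 5.95, SD, n = 3) and 88.9, 90.3 and 134 CPM in Veh1 to Veh3 (104 ± 25.4). All Hcy libraries were above all Veh libraries, with Veh3 the highest of its group. The log2 fold change was 0.77 (SE 0.15, edgeR adjusted p = 0.0303). It was between 0.67 and 0.99 with 1 library left out, and Rpl30 passed the adjusted p only when the library left out was Veh3. With any of the other 5 left out, the edgeR adjusted p was 0.105 to 0.135.

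A second expressed row for L30 had a fold change of the other sign. This row, LOC100362027, is an intronless copy at chr10:38024477-38024937 in the deposited table. Its level was 231, 215 and 228 CPM in Hcy1 to Hcy3 and 264, 277 and 382 CPM in Veh1 to Veh3. All Hcy libraries were below all Veh libraries, and the log2 fold change was -0.45 (SE 0.13, edgeR adjusted p = 0.143), and -0.27 (edgeR adjusted p = 0.0217) without Veh3. When the 10 rows of L30 were summed, the level was 412, 397 and 399 CPM in Hcy1 to Hcy3 and 352, 367 and 517 CPM in Veh1 to Veh3. The summed groups overlapped, with a log2 fold change of -0.03 (SE 0.13, edgeR adjusted p = 0.953). Without Veh3 the L30 sum turned to 0.16 (edgeR adjusted p = 0.0906), beside 0.99 for the Rpl30 row alone.

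The split of L30 reads between the rows separated the groups. Of the counts on the pair, Rpl30 held 43.9%, 45.9% and 42.9% in Hcy1 to Hcy3 and 25.2%, 24.6% and 25.9% in Veh1 to Veh3. The Wilson 95% intervals of single libraries, which cover counting error only, lay between 41.7% and 47.1% in Hcy and between 23.5% and 26.9% in Veh. Veh3 lay with Veh1 and Veh2 by this measure, unlike by the level of either row. The means were 44.2% ± 1.51 and 25.2% ± 0.664 (SD, n = 3 each). As Rpl30 was chosen for its difference between the groups, this split is given as a description.

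L17 showed the same arrangement. Rpl17, a spliced row at chr18:70970596-70975494 in the deposited table, encodes a protein near the exit tunnel of the large subunit. Its level was 545, 493 and 508 CPM in Hcy1 to Hcy3 and 355, 383 and 538 CPM in Veh1 to Veh3. The groups overlapped through Veh3, and the log2 fold change was 0.28 (SE 0.14, edgeR adjusted p = 0.462), and 0.48 (edgeR adjusted p = 0.00152) without Veh3. The second row, RGD1359290 at chr10:95642640-95657977, is annotated with introns. Its level was 267, 255 and 230 CPM in Hcy1 to Hcy3 and 323, 323 and 452 CPM in Veh1 to Veh3, with a log2 fold change of -0.55 (SE 0.13, edgeR adjusted p = 0.079), and of -0.37 (edgeR adjusted p = 0.00964) without Veh3. Rpl17 held 67.2%, 65.9% and 68.9% of the counts of the pair in Hcy1 to Hcy3 and 52.4%, 54.2% and 54.3% in Veh1 to Veh3. The L17 sum had a log2 fold change of -0.05 (SE 0.13, edgeR adjusted p = 0.925), and of 0.15 (edgeR adjusted p = 0.167) without Veh3. This pair was singled out after its values were seen.

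**Figure D3:**
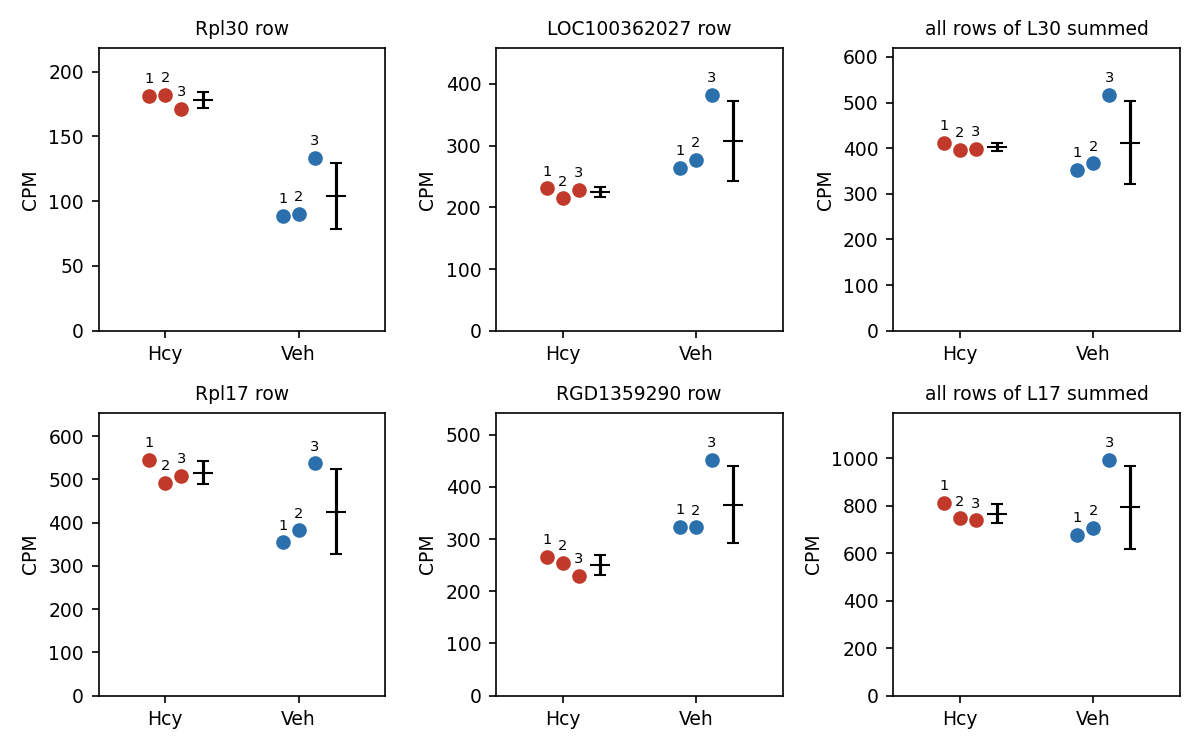
Level in CPM (vertical axes) of the Rpl30 and LOC100362027 rows and of all L30 rows summed (top), and of the Rpl17 and RGD1359290 rows and all L17 rows summed (bottom), by group. Numbered points are libraries and bars are mean ± SD, with fold changes of opposite sign for the paired rows and the sums overlapping (L30 log2 fold change -0.03, L17 -0.05).

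Such a split was not general. There were 35 proteins with a second row of at least 100 counts in every library. The share of counts on the highest row differed by a median of 0.384 percentage points between the group means, and by more than 5 points in 5 proteins. Those 5 were S19, L7a, L30, L17 and L21. The groups overlapped in S19, L7a and L21 and did not in L30 and L17. Without such overlap, but with differences of at most 1.49 points, were also L12, S7 and L3. Beside these, Rps10 held 77.2% ± 1.50 of the counts of its main pair in Hcy and 78.8% ± 0.710 in Veh (SD, n = 3). Rps4x on chrX held 81.6% ± 0.912 and 82.3% ± 0.229 of the counts of its pair.

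**Figure D4:**
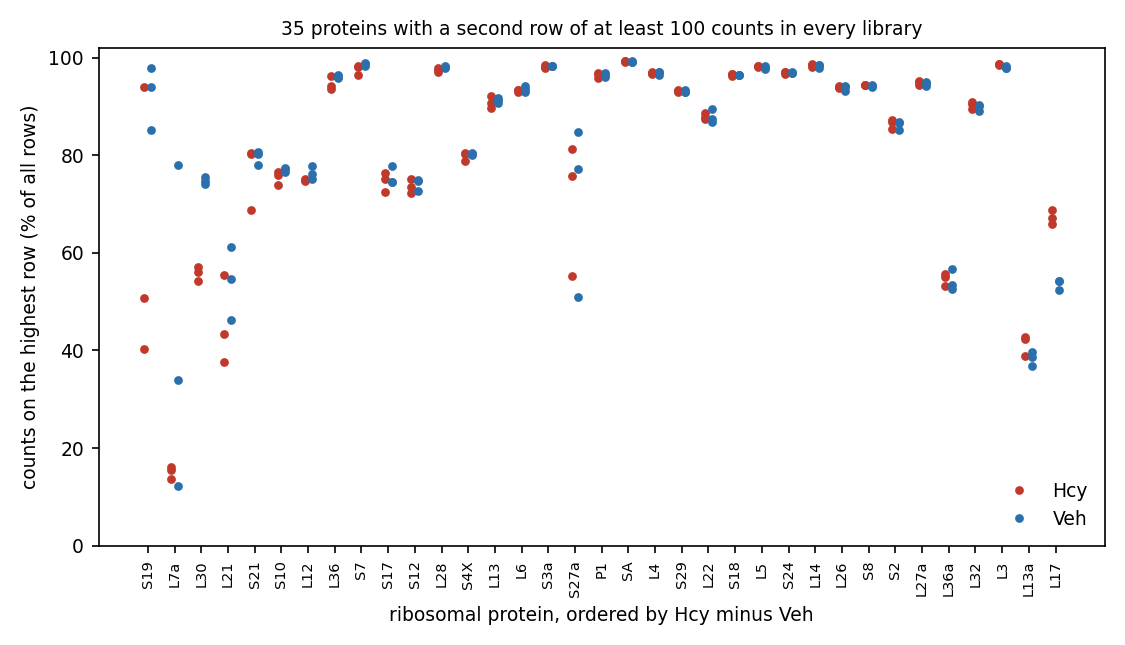
Counts on the highest row as a percent of all rows of the same protein (vertical axis), for 35 ribosomal proteins ordered by the difference between group means. Points are the 3 Hcy and 3 Veh libraries, which do not overlap between the groups for L30 and L17 and do for S19, L7a and L21.

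Some rows had 1 library far from the rest of its group. Rps9, a protein of the mRNA entry side of the small subunit, had 1826, 1677 and 2330 counts in Hcy1 to Hcy3 and 1730, 1988 and 65 counts in Veh1 to Veh3. Veh3 alone was low, and no other S9 row reached 10 counts in all. The log2 fold change of Rps9 was 0.71 (SE 0.75, edgeR adjusted p = 0.765) with Veh3 and 0.15 (edgeR adjusted p = 0.455) without it. Rpl8, which contacts the peptidyl transferase region, had 13 counts in Hcy1, 14 in Hcy2 and 1218 in Hcy3, and 17, 19 and 16 counts in Veh1 to Veh3. Its fitted log2 fold change of 4.49 (SE 1.55, edgeR adjusted p = 0.225) rested on Hcy3 and was -0.24 without that library. The sum of L8 rows was 109 CPM in Hcy3 and 33.6 to 43.1 CPM in the other 5 libraries.

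Rpl7a has 2 rows on chr3 with the same exon length of 798 bases. The row at chr3:4867233-4869656 had 434, 394 and 410 counts in Hcy1 to Hcy3 and 332, 7158 and 1282 counts in Veh1 to Veh3. The row at chr3:5459160-5461583 had 375, 414 and 417 counts in Hcy1 to Hcy3, and in Veh1 to Veh3 it had 328, 27 and 404. Veh2 was thus the highest library on the first row and the lowest on the second. The log2 fold changes were -2.78 (SE 0.88, edgeR adjusted p = 0.183) and 0.70 (SE 0.63, edgeR adjusted p = 0.711). The first row passed, at an adjusted p of 0.0402 by edgeR, when Veh1 was left out, and was at -0.98 (edgeR adjusted p = 0.488) without Veh2. The L7a sum over 34 rows was 171 to 192 CPM in Hcy and 161, 585 and 261 CPM in Veh1 to Veh3, so the Veh2 excess was not balanced by another row.

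Rps19l2 names a row on chr1 and another on chr9, both annotated to S19, a protein needed for maturation of the small subunit. The chr9 row had 2434, 179 and 2950 counts in Hcy1 to Hcy3 and 207, 492 and 110 counts in Veh1 to Veh3. On the chr1 row the counts were 2620, 3961 and 2080 in Hcy1 to Hcy3 and 4615, 3263 and 8736 in Veh1 to Veh3. Hcy2 was low on the first and high on the second, like the Veh libraries. The log2 fold changes were 2.82 (SE 0.85, edgeR adjusted p = 0.158) and -0.91 (SE 0.39, edgeR adjusted p = 0.348). Without Hcy2, the chr9 row passed with a log2 fold change of 3.36 (edgeR adjusted p = 0.0249). The S19 sum was 370, 283 and 307 CPM in Hcy and 291, 244 and 619 CPM in Veh, with a log2 fold change of -0.26 (edgeR adjusted p = 0.781). Without Veh3 the sum turned to 0.26 (edgeR adjusted p = 0.2), and the chr1 row was at -0.32.

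Rps27a, which encodes S27a as a fusion with ubiquitin, also has a spliced row (chr14) and an intronless row (chr5). The spliced row held 81.4% of the pair in Hcy1, 55.3% in Hcy2 and 75.8% in Hcy3, and 77.1% in Veh1, 51.0% in Veh2 and 84.8% in Veh3. The low libraries, Hcy2 and Veh2, came from both groups, and the means were 70.8% ± 13.7 and 71.0% ± 17.7 (SD, n = 3). S6, the substrate of S6 kinase, was counted mostly on LOC100911372, with counts of 2075, 639 and 507 in Hcy1 to Hcy3 and 1458, 4131 and 685 in Veh1 to Veh3. The row named Rps6 had between 4 and 33 counts. Libraries of the same group thus differed more than the groups did.

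**Figure D5:**
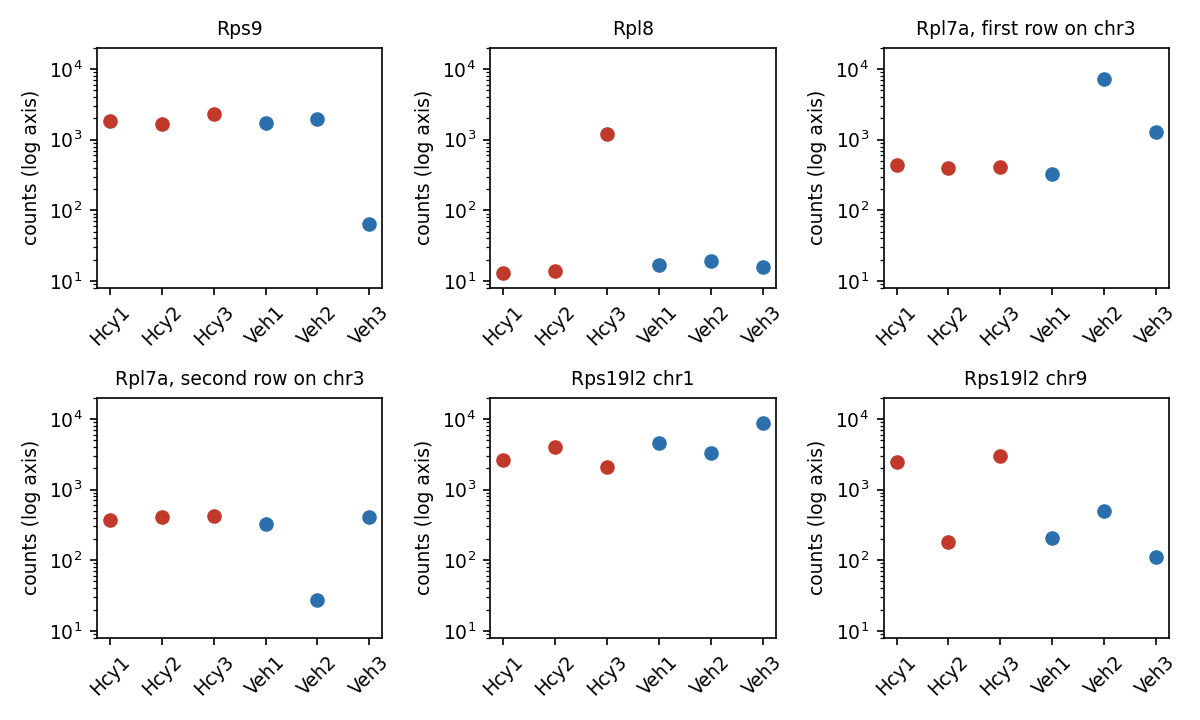
Counts per library (vertical log axes) of 6 rows in which single libraries lie far from the others, by library (horizontal axes). Veh3 is low for Rps9 at 65 counts, Hcy3 is high for Rpl8 at 1218, Veh2 is high on the first Rpl7a row at 7158, and Hcy2 resembles Veh on the Rps19l2 row of chr9 at 179.

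The acidic stalk recruits translation factors to the large subunit. Rplp0, the base of the stalk, was the highest member per length at 2564 CPM per kilobase of exon. Its level was 2806, 2580 and 2467 CPM in Hcy1 to Hcy3 and 2685, 2750 and 3526 CPM in Veh1 to Veh3. The groups overlapped and Veh3 was the highest library, with a log2 fold change of -0.19 (SE 0.11, edgeR adjusted p = 0.514), and of -0.054 without Veh3. Rplp1 had a log2 fold change of -0.19 (SE 0.18, edgeR adjusted p = 0.72), and of 0.08 without Veh3. Rpl12, at the stalk base, had one of 0.07 (SE 0.10, edgeR adjusted p = 0.85), and of 0.20 (edgeR adjusted p = 0.0728) without Veh3. The sum of L12 rows was at 0.24 (edgeR adjusted p = 0.034) without Veh3. The row named Rplp2 had 1 to 8 counts per library and held 0.286% of the P2 counts, most of which lay on the intronless LOC498555 at 57.6 to 89.6 CPM.

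Rpl5 and Rpl11 form, with 5S rRNA, the particle that binds Mdm2 when ribosome assembly fails. Rpl5 was at 1197, 1136 and 1142 CPM in Hcy1 to Hcy3 and at 1024, 1041 and 1433 CPM in Veh1 to Veh3. Rpl11 was at 494, 482 and 474 CPM in Hcy and at 471, 497 and 707 CPM in Veh. Both were highest in Veh3 and overlapped between the groups. The log2 fold changes were -0.01 (SE 0.12, edgeR adjusted p = 0.986) and -0.21 (SE 0.14, edgeR adjusted p = 0.592). Without Veh3 they were 0.17 and -0.0022.

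After Rplp0, the highest members per length were Rps2 (2383 CPM per kilobase), Rps20 (2319), Rpsa (2096) and Rpl41 (1822). Rpsa is also known as the laminin receptor, and Rpl41 is the smallest protein of the ribosome. Their log2 fold changes were between -0.15 and -0.08, each with a standard error of 0.12 to 0.16 and an edgeR adjusted p of at least 0.701. Each was highest in Veh3, at 2664, 1075, 2754 and 1108 CPM. Without Veh3 the log2 fold changes were between 0.02 and 0.13.

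Paralogues replace or resemble a core protein. Rpl22l1, the paralogue of the RNA-binding protein L22, was at 121, 117 and 124 CPM in Hcy1 to Hcy3 and at 68.6, 77.3 and 116 CPM in Veh1 to Veh3. Its groups did not overlap, although Veh3 came within 1 CPM of Hcy2. The log2 fold change was 0.46 (SE 0.17, edgeR adjusted p = 0.253), and 0.72 (edgeR adjusted p = 0.000434) without Veh3. L22 itself, counted on LOC100360057, had a log2 fold change of -0.11 (edgeR adjusted p = 0.819), which turned to 0.094 without Veh3. No other row of Rpl22l1's protein reached 10 counts.

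Rps27l, a paralogue of S27, was at 172, 165 and 159 CPM in Hcy and at 175, 180 and 213 CPM in Veh. The groups did not overlap, with a log2 fold change of -0.20 (SE 0.09, edgeR adjusted p = 0.379), and of -0.11 without Veh3. The intronless Rpl10l, known from the testis, was at 5.53, 6.45 and 7.34 CPM in Hcy and at 7.78, 8.60 and 9.83 CPM in Veh, with a log2 fold change of -0.44 (SE 0.17, edgeR adjusted p = 0.279). Rps4y2, intronless and on chr4 in this table, had a log2 fold change of -0.24 (SE 0.10, edgeR adjusted p = 0.333). Rps4x had values of 0.02 on chrX and 0.09 on chr4, which were 0.15 and 0.24 without Veh3. Rpl7l1, a paralogue with a role in large-subunit assembly, was at 90.4 to 93.2 CPM in Hcy and 92.9 to 100.5 CPM in Veh. It was among the members in which Veh3 was not the highest library. Rpl3l, a muscle paralogue, had 0 to 5 counts, and Rpl39l had 0 counts in all libraries. Rpl21 on chr12 was among the lower members in Hcy with a log2 fold change of -0.39 (SE 0.17, edgeR adjusted p = 0.343).

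The table holds 585 further rows annotated to a cytosolic ribosomal protein, of which 439 are intronless and 338 had 0 counts. The 93 members carried 89.8% of the counts on all 678 rows. Among the members 19 rows are intronless and 16 share their name with another row. Of 79 core proteins, 63 have a member as the row with most counts. Among the 148 other rows tested, 1 rose and 0 fell by edgeR, beside 2.34% of all genes. This was AABR07073045.1, an intronless S25 copy at chr4:120413653-120414118, with counts of 31, 26 and 81 in Hcy1 to Hcy3 and 2, 1 and 5 in Veh1 to Veh3. Its fitted log2 fold change was 4.04 (SE 0.62, edgeR adjusted p = 0.0128). This copy lay below the floor of 3 counts in Veh1 and Veh2, so the fitted value is not an exact fold change. Rps25 itself, at 477 ± 15.8 and 507 ± 132 CPM (SD, n = 3), had a log2 fold change of -0.09 (edgeR adjusted p = 0.88), and of 0.14 (edgeR adjusted p = 0.223) without Veh3.

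When all rows of a protein were summed, 0 of 83 proteins passed the adjusted p by edgeR and 0 by DESeq2, beside 2.48% of all features in the edgeR fit. At an unadjusted p of 0.05, 5 proteins passed by edgeR and 4 by DESeq2, beside 13.5% and 11.3% of all features. The median log2 fold change was -0.08, and 73 of 83 proteins were highest in Veh3. Without Veh3 the median was 0.11 and 5 proteins passed, beside 7.08% of all features. The 5 were L3, L22-like, L13a, L12 and L10a, all higher in Hcy. The L30 and L17 sums did not pass, unlike the Rpl30 and Rpl17 rows. With all 6 libraries, the groups did not overlap in 4 proteins, against 20.3% of all features. These were L38, L22-like, L10-like and S27-like. The L38 sum had a log2 fold change of -0.55 (SE 0.19, edgeR adjusted p = 0.225) at 5.64 to 6.98 CPM in Hcy and 7.71 to 11.2 CPM in Veh, and was at -0.35 (edgeR adjusted p = 0.265) without Veh3.

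A few proteins of the ribosome were nearly absent from the table. Of 78 core proteins, with S30 taken separately, 5 had a mean below 20 CPM over all their rows together. These were S26 (1.60 CPM), L38 (7.52), L10a (8.75), L23a (10.8) and L39 (12.4). Rpl10a, Rpl23a, Rpl39l and Rpl30l1 had 0 counts in all 6 libraries. Fau, the source of S30, had 4 to 18 counts per library. How reads that match several copies were counted is not stated, and its part in these values was not tested.

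Factors that build and regulate ribosomes were taken from lists, to be read against the 2.34% of all genes past the adjusted p and the 13.4% past the unadjusted p. Of 90 ribosome assembly factors tested, 0 rose and 0 fell by edgeR, with 8 at an unadjusted p of 0.05 and a median log2 fold change of -0.06. By DESeq2 none of them passed. Of 15 genes for rRNA transcription by RNA polymerase I, 0 passed the adjusted p by either tool, and 1 passed the unadjusted p of edgeR. The same held for 10 import factors and chaperones of ribosomal proteins (1 unadjusted), 18 translation factors with TOP mRNAs (1 unadjusted) and 21 genes of mTORC1 and LARP1 (0 unadjusted). Without Veh3, where 6.67% of all genes passed by edgeR, 1 assembly factor rose (Ncl, 0.22), as did 1 chaperone (Nap1l1, 0.26), 2 TOP translation genes (Eef2, 0.20, and Hnrnpa1, 0.22) and Eif4ebp1 (0.29), while Rptor fell (-0.28), all as log2 fold changes. Eef2, the elongation factor that moves the ribosome, had a log2 fold change of 0.16 (SE 0.06, edgeR adjusted p = 0.283) with 6 libraries. Of 17 TOP translation factors with at least 100 counts in every library, 12 were highest in Veh3, as were 50 of 88 assembly factors and 8 of 19 genes of mTORC1 and LARP1. Without the share of all genes highest in Veh3, these counts do not show a trait of the lists. The expressed Rack1 row and Rpl36al, ribosomal proteins outside the naming pattern, were also highest in Veh3.

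Mdm2, the ubiquitin ligase that the particle of Rpl5 and Rpl11 binds, fell in the Hcy group. It was named because it passed the adjusted p, and the other genes of its list are not reported here. It was at 297, 325 and 316 CPM in Hcy1 to Hcy3 and at 486, 571 and 493 CPM in Veh1 to Veh3. All Hcy libraries were below all Veh libraries, with a log2 fold change of -0.72 (SE 0.08, edgeR adjusted p = 0.00353). The value was -0.76 without Veh3.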

How the data were processed

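RNA-seq of 6 libraries was analysed, 3 Hcy and 3 Veh, grouped by their labels. The deposited table gives unnormalized read counts from the authors for 33566 genes, each with a position and a length. The submitters' processing notes name fastp, HISAT2 2.2.1, StringTie 2.2.3, Cufflinks, featureCounts 2.0.6 and DESeq2 1.42.0, and the builds mRatBN7.2 and rn7. The deposited table names no build, and its chr1 positions reach 282724300, past the end of chr1 in mRatBN7.2. The build of these positions is therefore not known, and they are given as listed. Strand and multi-mapping settings are not given in the sources used here. A table of the authors' own comparison was not used here.

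Genes with at least 10 counts over the 6 libraries were kept, 14603 in all. Groups were compared with edgeR 4.0.16 (R 4.3.3), by the quasi-likelihood test with TMM factors (0.977 to 1.02) and Benjamini-Hochberg adjustment over all genes. Rose and fell are used at an adjusted p of at most 0.05, and a gene was called with, in addition, a log2 fold change of at least 1 in size. The standard error is the size of the log2 fold change, refitted without a prior count, divided by the root of the F statistic. The refitted value can differ from the log2 fold change given, mainly in rows with few counts. CPM values are TMM-scaled, with the SD over 3 libraries. A row is intronless where its exon length equals its span. Rows were assigned to a protein by the Swiss-Prot entry in the deposited description and summed for a second fit. The fits were tested on simulated counts, drawn with no library set apart and no reads split between rows. That test therefore does not cover these features of the data.

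Members named were those past the adjusted p, the 5 largest changes in each direction with at least 10 counts in every library of the higher group, the stalk, 5S RNP and paralogue members, those with 1 library differing over 4 times in either direction from the median of the others of its group at a median of at least 50 counts, and the 5 highest per length. Pathway genes were named where they passed the adjusted p. Others were chosen after their values were seen. Some genes are not reported here. Members and lists were chosen with earlier results of these data known. Alternatives were DESeq2 1.42.0, its size factors, library totals alone, other count filters, protein-coding genes alone, a block for the replicate number, leaving out each library, other member sets and the unadjusted p. Leaving out a library was fitted with edgeR on the other 5.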

Additional observations from a re-analysis of the deposited data

How the results depend on the processing

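Among 42 named genes and sums, 26 kept the direction of their log2 fold change under every alternative and 16 turned in at least 1, of which 13 turned only where a library was left out. The count of members past the adjusted p was 1 (Rpl30) with DESeq2, its size factors, library totals alone, filterByExpr, protein-coding genes alone and spliced members with 1 row per name. It was 3 without a filter on low counts, beside 2.48% of all genes (with the first Rpl7a row and the chr9 row of Rps19l2), 11 at the unadjusted p, and 0 among members whose protein has no other row with 10 counts, an alternative chosen after seeing the data. Members called with the fold threshold numbered 2 without the filter, beside 0.583% of all genes, and 4 at the unadjusted p, beside 2.56%. Over all genes, 109 were called without the filter, and 612 passed the adjusted p with DESeq2. With 1 library left out, the lowest and highest counts were 39 and 112 genes called, 80 and 957 genes past the adjusted p, 0 and 1 members called, 0 and 5 members past the adjusted p, and 0 and 5 proteins past it with copies summed. The members that passed were Rps19l2 chr9 without Hcy2, the first Rpl7a row without Veh1, and the 5 named in the report without Veh3. The difference in the share of counts was -0.202 percentage points with 6 libraries and 0.286 without Veh3.

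Leaving out 1 library gave log2 fold changes from -0.79 to 0.55 for Rpl3l, -0.26 to 0.086 for Rpl41, -0.094 to 0.17 for Rpl5, -0.24 to 5.05 for Rpl8, -0.33 to 0.079 for Rplp1, -0.98 to 1.63 for Rplp2, -0.23 to 0.024 for Rps2, -0.17 to 0.13 for Rps20, -0.22 to 0.14 for Rps25, -0.21 to 0.094 for LOC100360057 (L22), -0.055 to 0.15 for Rps4x on chrX and -0.22 to 0.044 for Rpsa. It gave -0.13 to 0.16 for the L30 sum, -0.15 to 0.15 for the L17 sum, -0.51 to 0.26 for the S19 sum and -0.053 to 0.96 for the L8 sum. With DESeq2 the value of Rplp2 was -0.011. The cause of these changes was not tested, except that Rplp2 and Rpl3l have few counts and that the Rpl8 value rests on Hcy3.

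The replicate numbers gave no clear pairing of the samples. Libraries with the same number correlated by -0.14 to 0.36 in their deviations from the group means. Those with different numbers correlated by -0.35 to 0.30. The highest value, 0.36, was that of Hcy2 with Veh2. The replicate block is therefore given here only. With it, 298 genes passed the adjusted p over the whole table and the member that passed was again Rpl30, at a log2 fold change of 0.80. Rpl3l was then at -0.12 and Rpl5 at 0.0082. The median member log2 fold change was -0.06 with the block.

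Rplp2, Rpl3l, Rpl38 and Rps6 had few counts, so their values carry a large counting error. Strand and multi-mapping settings are unknown, so values of rows with near-identical copies are uncertain.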

Other observations

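Other rows of ribosomal proteins gave values outside the comparisons of the report. Without Veh3, 3 of 143 rows outside the naming pattern rose and 3 fell by edgeR, beside 6.67% of all genes past the adjusted p. Those that rose were copies of L10a (LOC100363537, log2 fold change 0.76), L12 (LOC102555453 on chrX, 0.34) and S25 (AABR07073045.1). The S25 copy lay below the floor of 3 counts in Veh1 and Veh2, so its fitted value of 4.89 is not an exact fold change. Those that fell were the second rows of L17 (RGD1359290, -0.37) and L30 (LOC100362027, -0.27) and a copy of L29 (AABR07064000.1, -1.54). The pair of rows of L30 and that of L17 were thus each past the adjusted p in opposite directions without Veh3.

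A spliced P2 row, LOC100911575 on chr1, had 203 counts in Hcy1 and 9 to 14 counts in the other 5 libraries. The L21 copy AABR07030162.1 on chr10 had 243, 222 and 99 counts in Hcy1 to Hcy3 against 60, 103 and 397 in Veh1 to Veh3. Within groups, S6 ranged from 31.9 to 150 CPM in Hcy and from 48.8 to 265 CPM in Veh over all its rows.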
